A study of Mus musculus with 84 samples.

Results

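Oxidative phosphorylation genes of both genomes were followed through single airway sensory neurons of the mouse. Members were the protein-coding genes whose symbol begins with Nduf, Uqcr, Cox4, Cox5, Cox6, Cox7, Cox8, Atp5 or mt-, together with the succinate dehydrogenase genes Sdha, Sdhb, Sdhc and Sdhd and the cytochrome c gene Cycs. The count table held 107 such genes among its 50686 gene identifiers, of which 94 lie in the nuclear genome and 13 in the mitochondrial genome. A second annotated record of Atp5o was the only other gene of the annotation that met the rule, and it had no row in the table.

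The series consists of 84 neurons from vagal ganglia of C57BL/6 mice, each recognised by the lipophilic tracer DiI (2%) carried back from the airways and each sequenced as a separate library after amplification of its mRNA. All 84 form 1 group, with no treatment and no second genotype, and neither the age of the mice nor the animal behind a neuron is given. The 72 neurons with at least 5000000 total counts were used, and these had 6732279 to 20668832 counts with a median of 12860292.5. Neurons are not replicates of a condition, so no test between groups was possible, and spread is given as the lowest, median and highest neuron. Levels are counts per 1000000 of a neuron's total (CPM), and a gene was called detected in a neuron at 10 CPM or more.

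Oxidative phosphorylation couples electron transport to ATP synthesis in the inner mitochondrial membrane. Complexes I and II feed electrons to complex III, cytochrome c carries them to complex IV, and complex V makes ATP from the proton gradient that complexes I, III and IV build. Complex II is encoded wholly in the nucleus, whereas each of the other complexes combines subunits made from nuclear and from mitochondrial genes. Long axons and repeated firing make sensory neurons large consumers of ATP.

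Most libraries carried neuronal transcripts, and a few did not do so clearly. The summed level of 10 pan-neuronal markers, among them Snap25 and Stmn2, ran from 559 CPM to 30438 CPM with a median of 18847 CPM, and all 10 markers were detected in at least 50% of neurons. In 7 of the 72 libraries the summed level of 7 satellite glia markers was above the pan-neuronal sum. Neuron AM244 stood farthest apart, with 35386 CPM of satellite glia markers against 559 CPM of pan-neuronal markers. Neuron AM287 had 56618 CPM against 3101 CPM and only 841 genes detected, where the median neuron had 5855.5. Both are labelled as neurons, and results that rest on these 7 libraries are given with and without them.

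The summed nuclear transcripts of the system varied far less between neurons than the summed mitochondrial transcripts did. The summed level of the 94 nuclear genes was 10553 CPM in the lowest neuron, 26164 CPM in the median neuron and 59745 CPM in the highest. The summed level of the 13 mitochondrial genes was 475 CPM in the lowest neuron, 11993 CPM in the median neuron and 74435 CPM in the highest. The nuclear sum thus covered a 5.66-fold range and the mitochondrial sum a 157-fold range. The ratio of the 90th to the 10th percentile was 1.97 for the nuclear sum and 11.7 for the mitochondrial sum. The contrast holds for the sums and not for single genes. Among genes with a median of at least 50 CPM, the median ratio was 19.3 over 72 nuclear members and 16.3 over 7 mitochondrial ones. Without the 7 libraries rich in glia markers the ranges were 3.57-fold and 155-fold, and after trimmed mean of M-values (TMM) scaling, which derives a factor per neuron from the bulk of its genes, they were 76.2-fold and 1524-fold. Together both sets took 2.28% to 11.5% of a neuron's counts, with a median of 3.81%.

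The nuclear sum was the larger in 58 of 72 neurons and the mitochondrial sum in 14. The ratio of nuclear to mitochondrial sum was 0.154 in the lowest neuron, 1.97 in the median neuron and 67.3 in the highest, a median of 0.98 on the log2 scale. In 34 neurons the ratio lay between 0.5 and 2, and in 10 neurons it was 10 or more. The highest ratios came from neurons with nuclear sums above the median and very low mitochondrial sums. Neuron AM297 had 38061 CPM of nuclear and 565 CPM of mitochondrial transcripts, and AM219 had 29766 CPM and 475 CPM. The lowest ratio was that of AM244, the library with most glia relative to neuronal markers. Of the 14 neurons with more mitochondrial than nuclear transcripts, 5 were among the 7 libraries rich in glia markers, and without those 7 the median ratio was 2.33. Without members that overlap a gene or have a named pseudogene, 58 nuclear genes remained but only 3 mitochondrial ones, mt-Cytb, mt-Co2 and mt-Nd3. The median mitochondrial sum was then 3813 CPM, mostly of mt-Cytb, and the median log2 ratio 1.96. This setting did not remove all genes with copies on chromosome 1. mt-Co2, mt-Co3, mt-Atp6, mt-Nd3 and mt-Nd4l had low counts beside near-identical annotated copies on chromosome 1, as described below. Whether the mitochondrial sum was undercounted was not tested, and leaving members out can only lower a sum. The number of neurons with the larger nuclear sum is therefore uncertain. Scaled per kilobase of exon, the median ratio was 1.42 and the nuclear sum was the larger in 49 of 72 neurons.

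**Figure D1:**
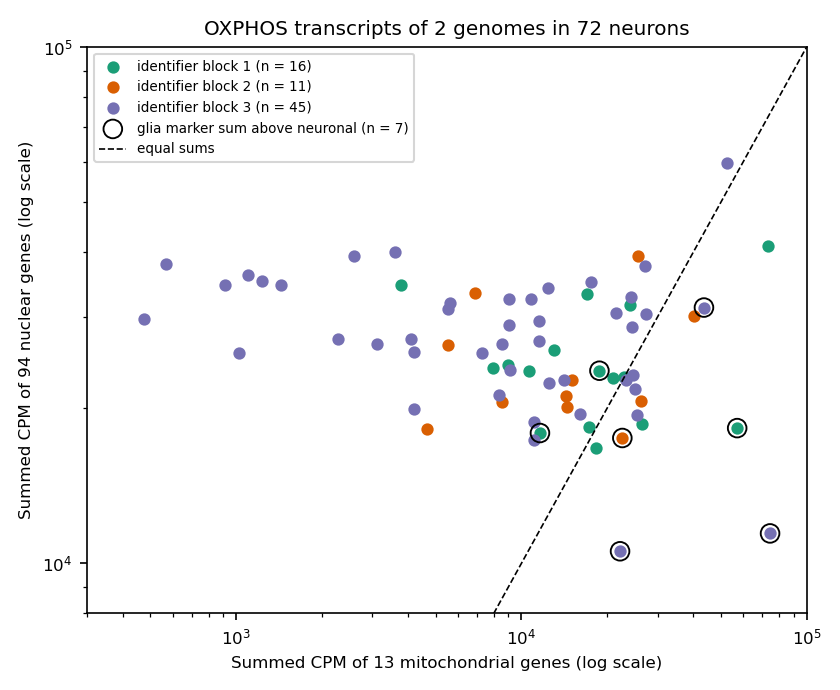
Each point is 1 of 72 neurons, with the summed CPM of the 13 mitochondrial genes on the x axis and of the 94 nuclear genes on the y axis, both on log scales; colours mark identifier blocks, rings mark the 7 libraries with more glia than neuronal marker counts, and the dashed line marks equal sums. Points spread far along the x axis, from 475 to 74435 CPM, and little along the y axis, from 10553 to 59745 CPM.

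Across neurons the sums of the 2 genomes did not rise together on the CPM scale. Spearman's rho between nuclear and mitochondrial sum was -0.24 over 72 neurons, whose values share a library, a depth and a fixed total. It was -0.18 when nuclear genes were scaled to the total without mitochondrial counts and -0.17 without the 7 libraries rich in glia markers. The sign depended on the scaling, since rho was 0.30 after TMM scaling. TMM factors ran from 0.0555 to 2.17 and followed the number of detected genes with a rho of 0.98. Both sums of a neuron are divided by its factor, so a low factor raises both. Neuron identifiers fall into 3 blocks parted by gaps in numbering, which the labels do not call batches. Within blocks of 16, 11 and 45 neurons rho was -0.16, 0.19 and -0.27.

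The mitochondrial sum followed the mitochondrial ribosomal RNAs, with a rho of 0.65 over all neurons and of 0.61, 0.32 and 0.71 within the blocks. Its rho with the pan-neuronal marker sum was -0.51 in CPM, -0.48 with those markers scaled to the total without mitochondrial counts, and 0.14 after TMM scaling. Within blocks the same rho was 0.04, 0.06 and -0.65, so the negative value in CPM rested on the third block. Single markers, scaled to the total without mitochondrial counts, had a weaker median rho of -0.14 with the mitochondrial sum. Their values ran from -0.49 for Stmn2 to 0.13 for Map2. The summed level of 4 Schwann cell markers, which ran from 1.96 CPM to 12232 CPM, had a rho with the mitochondrial sum of 0.41, of 0.42 without the 7 libraries rich in glia markers and of 0.46 after TMM scaling. The satellite glia sum, from 9.01 CPM to 56618 CPM, had a rho of 0.16 with the mitochondrial sum of 0.0005 without those 7 libraries and of 0.39 after TMM scaling. The number of detected genes had a rho of -0.01 and total counts a rho of -0.23. What part glial RNA has in the mitochondrial sum was not tested.

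The nuclear sum had a positive rho with the summed neuronal markers under both scalings. Its rho was 0.40 with the pan-neuronal sum, 0.29 without the 7 libraries and 0.85 after TMM scaling. With the satellite glia sum it was -0.07 in CPM and 0.53 after TMM scaling, so a high value under TMM was not limited to neuronal markers. Its rho was -0.51 with the sum of 3 nuclear-retained RNAs, among them Malat1 and Meg3, and -0.02 after TMM scaling. With the Schwann cell sum it was -0.50 in CPM and 0.05 after TMM scaling. Single pan-neuronal markers differed in their rho with the nuclear sum, both scaled to the total without mitochondrial counts. Values ran from -0.27 for Rbfox3 to 0.30 for Prph, with a median of 0.17.

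Among mitochondrial genes, 3 were detected in all 72 neurons. mt-Cytb, which encodes cytochrome b of complex III, had 14.5 CPM in the lowest neuron, 3763 CPM in the median neuron and 34783 CPM in the highest. mt-Nd4, a membrane subunit of complex I, had 46.6, 2822 and 23159 CPM in the lowest, median and highest neuron. mt-Nd1, another membrane subunit of complex I, had 19.6, 2590 and 16293 CPM in the same order. Together these 3 genes made up 33.3% to 96.5% of a neuron's mitochondrial sum, with a median of 76.0%. Per kilobase their median levels were 3289, 2048 and 2706 CPM per kb, and their ranges over neurons overlap.

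Other genes of the proton pumps were lower. Median levels per kilobase were 1108 for mt-Nd6, 696 for mt-Nd2 and 266.8 for mt-Nd5, all subunits of complex I, and 440 for mt-Co1, the catalytic subunit of complex IV. They were detected in 65, 69, 64 and 67 neurons. mt-Nd6 is encoded on the strand opposite to all the others, and its end overlaps mt-Nd5. Because the strand setting of the counting is not given in the sources used here, reads of mt-Nd6 cannot be told apart from transcripts of the other strand. mt-Nd5 was highest in AM287, at 7699 CPM.

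The remaining 6 genes had few counts. Median levels were 46.8 CPM for mt-Atp6 and 0.298 CPM for mt-Atp8, both of ATP synthase, 36.9 CPM for mt-Co2 and 22.8 CPM for mt-Co3 of complex IV, and 3.73 CPM for mt-Nd3 and 0.0719 CPM for mt-Nd4l of complex I. mt-Atp8 and mt-Nd4l reached 10 CPM in 0 of 72 neurons, which allows a share of neurons of up to 4.17%, and their highest values were 4.80 and 2.42 CPM. Among the 6, mt-Nd4l, mt-Nd3, mt-Co3, mt-Atp6 and mt-Co2 have near-identical annotated copies on chromosome 1. These low values are therefore uncertain as measures of mitochondrial transcripts.

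The copies lie one after another on the minus strand of chromosome 1 at chr1:24611535-24616197 (GRCm38), as 7 unprocessed pseudogenes. All 76-base windows of each member, the length of the reads, were looked up on both strands in the annotated transcripts of other genes. The share found there was 99.9% for mt-Co3, 99.5% for mt-Co2 and mt-Atp6, 98.6% for mt-Nd4l and 97.8% for mt-Nd3. It was 61.5% for mt-Nd4 and 39.4% for mt-Co1, and at most 5.61% for the other 6. mt-Atp8 had none, although its counterpart would fall in the 233 bases between the annotated copies of mt-Atp6 and mt-Co2, where no transcript is annotated. The first 76 bases of mt-Nd3 and of its copy Gm28438 are shown because they hold the only difference found in that pair, written T3C with positions counted from the first base of mt-Nd3, and the differing base is in capitals. The first 76 bases of mt-Atp6 and of its copy Gm10925 have no difference.
mt-Nd3: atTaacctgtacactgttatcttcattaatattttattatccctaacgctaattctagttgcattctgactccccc
Gm28438: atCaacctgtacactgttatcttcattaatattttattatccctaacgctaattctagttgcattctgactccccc
mt-Atp6: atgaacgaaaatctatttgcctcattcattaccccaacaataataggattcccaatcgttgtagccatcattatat
Gm10925: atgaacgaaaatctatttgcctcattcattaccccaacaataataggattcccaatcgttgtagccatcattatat

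Of the 7 copies, those of mt-Atp6, mt-Co2, mt-Co3 and mt-Nd3 were counted at median levels somewhat above those of the genes they match, and those of mt-Nd4 and mt-Co1 far below. Median levels were 82.8 CPM for Gm10925, 41.2 CPM for Gm28661, the copy of mt-Co2, 28.3 CPM for Gm28437, the copy of mt-Co3, and 4.88 CPM for Gm28438. Over neurons these 4 had a rho with their mitochondrial counterparts of 0.98 for mt-Atp6, 0.99 for mt-Co2, 0.98 for mt-Co3 and 0.97 for mt-Nd3. Gm28439, the copy of mt-Nd4, had a median of 2.96 CPM against 2822 CPM for mt-Nd4, with a rho of 0.77. Gm29216, the copy of part of mt-Co1, had 34.97 CPM against 680.3 CPM for mt-Co1, with a rho of 0.79. Gm10222, the copy of mt-Nd4l, had 0.111 CPM, and both it and mt-Nd4l were below 10 CPM in every neuron. The aligned stretches were identical over 678 bases for mt-Atp6, 681 for mt-Co2, 783 for mt-Co3 and 876 for mt-Nd4. With the members that share most of their windows left out, the median mitochondrial sum was 9142 CPM and its rho with the nuclear sum was -0.23.

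**Figure D2:**
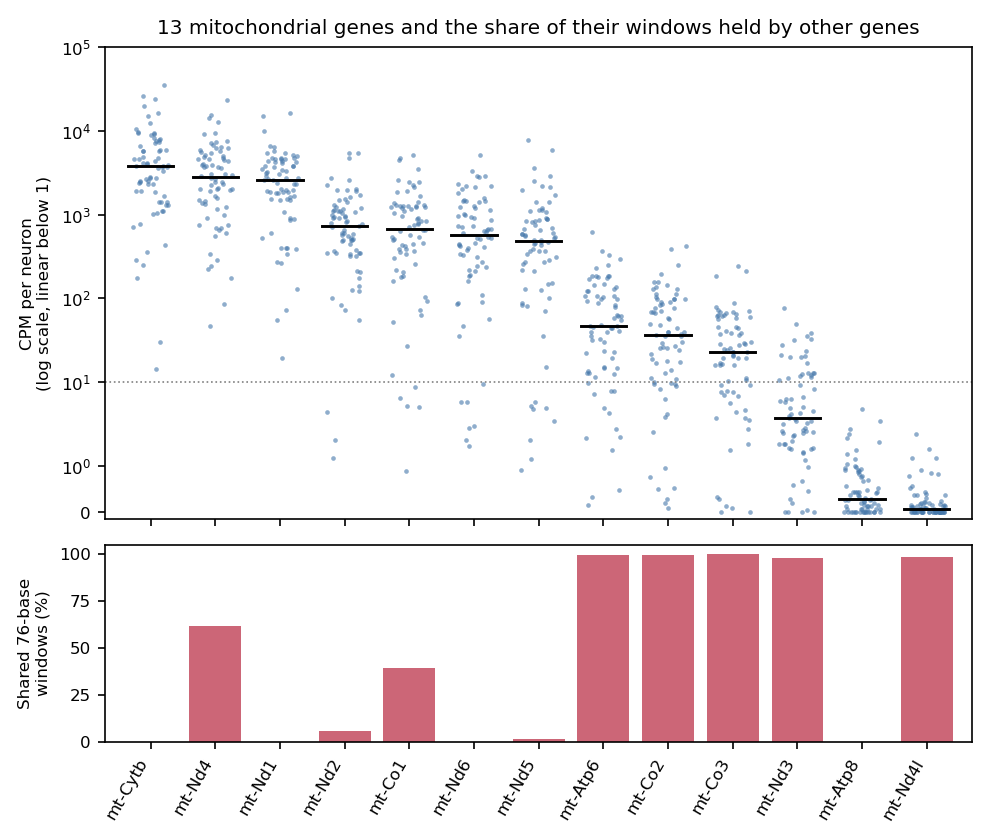
The upper panel shows CPM of each mitochondrial gene in 72 neurons (points; log scale, linear below 1) with the median as a bar and 10 CPM as a dotted line, and the lower panel shows the percentage of each gene's 76-base windows found in another annotated gene. mt-Atp6, mt-Co2, mt-Co3, mt-Nd3 and mt-Nd4l, with shares of 97.8% to 99.9%, have medians of 46.8 CPM or less, and mt-Atp8 is low with a share of 0.

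Nuclear members were broadly detected. At 10 CPM in at least 50% of neurons stood 81 of 94 nuclear genes, where the share over all protein-coding genes was 23.9%. In at least 1 neuron 89 were detected, and in all 72 neurons 6 were, namely Cox8a, Cox6a1, Cox4i1, Ndufa4, Atp5a1 and Atp5b. A neuron had 19 to 85 nuclear members detected, with a median of 79.5, and the lowest count was that of AM287. Another annotated gene overlaps 32 of the 94, among them Cox4i1, Ndufa2 and Atp5a1, and without a stated strand setting their reads cannot be told apart from those of the overlapping gene.

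Complex I, the NADH dehydrogenase, contributed 44 nuclear genes. All 7 core subunits and all 29 accessory subunits were detected in at least 50% of neurons, as were 7 of 8 assembly factors, which help build the complex and are not part of it. Median levels per kilobase were 55.9 for the middle core subunit, 82.6 for the middle accessory subunit and 9.92 for the middle assembly factor. The highest were Ndufb3 with 501 and Ndufa2 with 480 CPM per kb, both small accessory subunits. Ndufb3 had 0, 382 and 3003 CPM in the lowest, median and highest neuron, and Ndufa2 had 0.0812, 274 and 1374 CPM. The lowest of those detected in at least 50% of neurons were the assembly factors Ndufaf4 with 6.87 and Ndufaf2 with 3.11 CPM per kb. Ndufaf6 was the assembly factor below that limit, with 10 CPM or more in 28 neurons.

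Complex II, which also serves the citric acid cycle as succinate dehydrogenase, had all 4 genes detected in at least 50% of neurons. Median levels per kilobase were 196 for Sdhd and 29.8 for Sdhc, the membrane anchors, 122 for the iron-sulfur subunit Sdhb and 74.6 for the flavoprotein Sdha. Sdhb had 0 CPM in its lowest neuron, 273.2 CPM in the median neuron and 10607 CPM in AM298. Neuron AM298 had 1428 genes detected and gave the highest sums of complexes II, III and V, at 11019, 11567 and 27687 CPM. AM298 had the highest nuclear sum and AM287 the lowest, so leaving out both cannot change the median of 26164 CPM.

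All 8 nuclear genes of complex III, the cytochrome bc1 complex, were detected in at least 50% of neurons. Small subunits led, with 569 CPM per kb for Uqcr10 and 418 for Uqcrh, and the large core proteins Uqcrc1 and Uqcrc2 were lowest, with 26.5 and 20.6. Uqcrh had 6.68 CPM in the lowest neuron, 517 CPM in the median neuron and 3861 CPM in the highest. Uqcrc2 had 0, 52.6 and 314 CPM. Cycs, the mobile carrier to complex IV, had 0.210, 120 and 876 CPM.

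Complex IV, cytochrome c oxidase, had 11 of its 20 nuclear genes detected in at least 50% of neurons, the lowest share of any complex. The genes below that limit were Cox7c, Ndufa4l2 and isoforms of subunits 4, 6a, 6b, 7a, 7b and 8 known from other tissues. Cox8a led with 839 CPM per kb and Cox6a1 followed with 763. Cox8a had 121, 519 and 2705 CPM in the lowest, median and highest neuron, and Cox6a1 had 70.6, 535 and 3332 CPM, so neither came near 0 in any neuron. Cox5a and Cox5b, subunits on the matrix side, were the lowest of those detected in at least 50% of neurons, with 113 and 40.2 CPM per kb. Cox7c had a median of only 6.17 CPM, and 20.7% of its windows were found in other genes.

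Complex V, ATP synthase, had 14 of 17 genes detected in at least 50% of neurons. Atp5g3, which encodes the membrane ring subunit c, led with 854 CPM per kb, and Atp5a1, the alpha subunit of the catalytic head, followed with 498. Atp5a1 had 22.9, 1561 and 3689 CPM in the lowest, median and highest neuron. On the merged length of all annotated exons, Atp5j2 and Atp5g1 were lowest among the 14, with 78.5 and 24.9 CPM per kb. The other 3 were Atp5l, Atp5g2 and Atp5s, with medians of 5.56, 1.19 and 9.24 CPM. Of the windows of Atp5l 75.7% were found in other genes, and of those of Atp5g2 35.7%, so both values are uncertain.

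**Figure D3:**
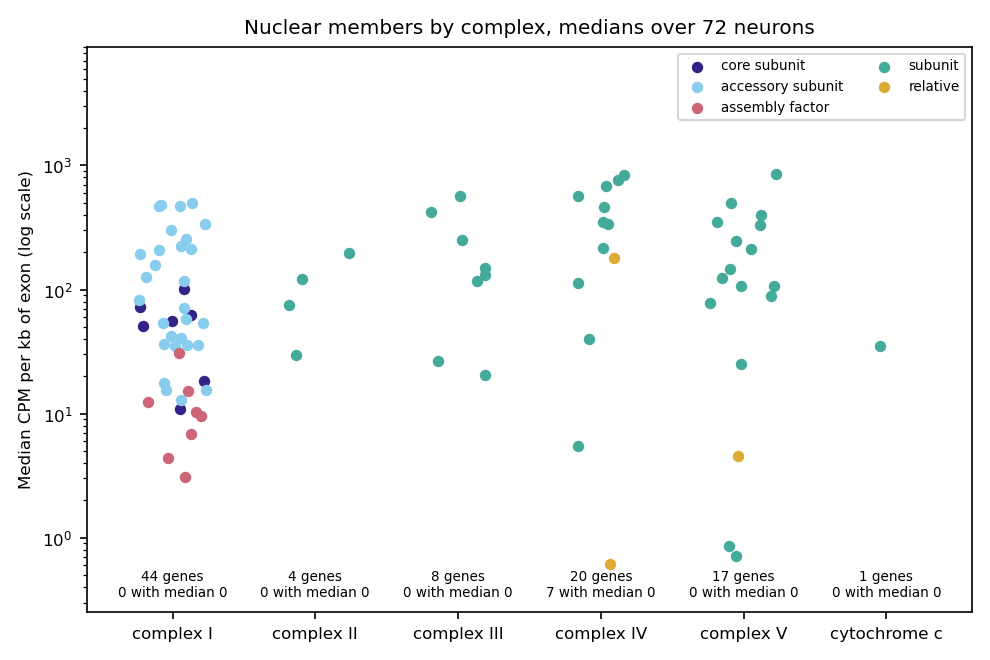
Each point is 1 nuclear gene, placed by complex and coloured by role, with its median CPM per kb of exon over 72 neurons on a log scale; the text in each column gives the number of genes and of genes with a median of 0. Assembly factors of complex I lie below most subunits, and the 7 genes with a median of 0 all belong to complex IV.

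Within paralogue families 1 form usually accounted for the transcripts. Cox4i1, the common form of subunit 4, had 11.1, 1052 and 5073 CPM in the lowest, median and highest neuron, while Cox4i2, a lung-enriched form that responds to oxygen, had 3 counts over all 72 neurons. Cox6b2 and Cox8c, both known from testis, reached 1.61 and 0.283 CPM at most. Cox8b, known from muscle and brown fat, had 0 counts in every neuron. Ndufa4l2, a relative of Ndufa4 that is induced in low oxygen, had a median of 0.676 CPM and a highest value of 3.04 CPM, against 641 and 2819 CPM for Ndufa4. These 5 genes reached 10 CPM in 0 of 72 neurons.

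Heart and muscle forms appeared in single neurons. Cox6a2, at chr7:128205435-128206387 (GRCm38), reached 10 CPM in 2 neurons, with 354 CPM in AM297 and 24.6 CPM in AM272, and Cox6a1 exceeded it in both. The share of 2.78% of neurons has an exact 95% interval of 0.338% to 9.68%. Cox7a1, at chr7:30184144-30186078 (GRCm38), reached 10 CPM in 7 neurons, led by AM288 with 410 CPM. AM210, AM291, AM281, AM257, AM076 and AM018 followed with 43.8, 40.9, 24.4, 16.4, 15.8 and 13.3 CPM. In AM288 and AM297 the summed level of 7 muscle markers was 0 and 2.73 CPM, and their pan-neuronal sums were 29899 and 30438 CPM. A muscle marker reached 10 CPM in 3 of the other Cox7a1 neurons, with Ckm at 15.4 CPM in AM291 and Tnnt2 at 11.2 CPM in AM257 and 23.7 CPM in AM018. The part of muscle RNA in these values was not tested. Cox7b2, known from testis, reached 10 CPM in AM234 alone, with 38.5 CPM.

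Other families had more than 1 gene at 10 CPM in most neurons. Per kilobase, Cox7a2 had a median of 348 and its relative Cox7a2l, which helps join complexes III and IV, had 178, and Cox7a2 was the higher in 55 neurons and Cox7a2l in 17. Of the 3 genes that encode the same subunit c, Atp5g3 was highest per kilobase in 70 of 72 neurons, and Atp5g1 and Atp5g2 in 1 neuron each. Atp5g3 had 9.26, 1863 and 20016 CPM in the lowest, median and highest neuron, and Atp5g1 had 2.53, 122 and 554 CPM.

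**Figure D4:**
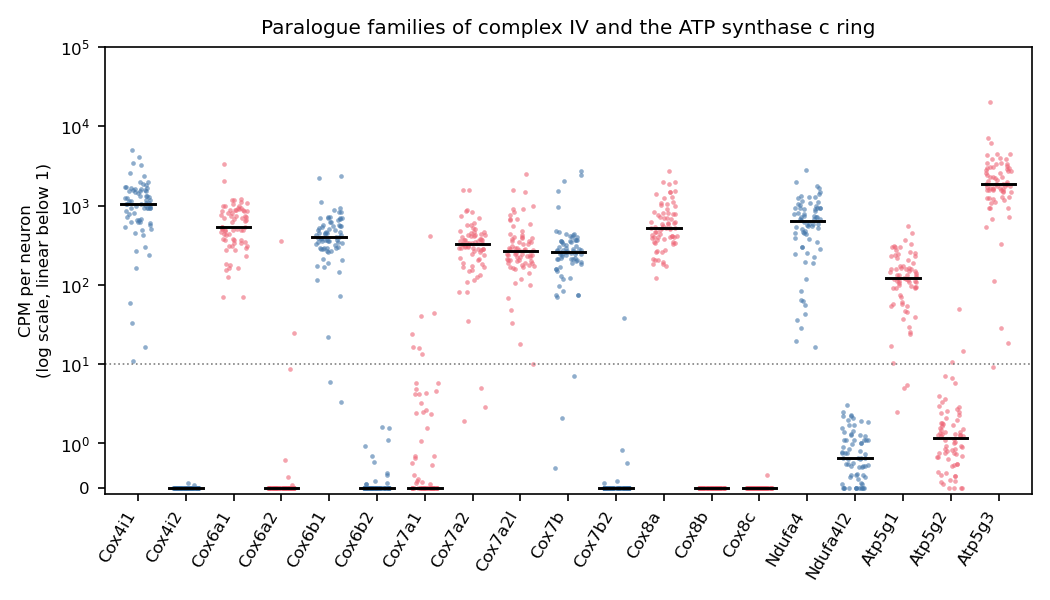
Points show CPM in 72 neurons for each gene of 8 paralogue families (neighbouring families alternate in colour; log scale, linear below 1), bars show medians and the dotted line marks 10 CPM. Cox7a1 and Cox6a2 have medians of 0 with single neurons up to 410 and 354 CPM.

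Members differed in how evenly they were counted across neurons. Among protein-coding genes with a median of at least 50 CPM, the ratio of the 90th to the 10th percentile had a median of 286.9 over 2404 genes. It had a median of 19.3 over the 72 nuclear members at that level and of 16.3 over the 7 mitochondrial ones. The most even nuclear member was Atp5b, the catalytic beta subunit of ATP synthase, with a ratio of 3.80. The widest was Ndufaf5, an assembly factor of complex I, with 0.0101 CPM at the 10th percentile, 55.6 CPM at the median and 146 CPM at the 90th. Ndufs4, Uqcrc2, Sdhc and Ndufa9 followed, with ratios of 2741, 1494, 749 and 700, and each was detected in 51 to 57 neurons. Ndufb7, Sdhd, mt-Nd5, Ndufb5 and Ndufs7 complete the widest 10, with ratios from 398 down to 235.2. Libraries had 841 to 8870 genes detected, with a lower quartile of 3234, and a 10th percentile near 0 makes the ratio large. The part of these library differences in the ratios was not tested.

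Mitochondrial genes varied together and nuclear genes did so weakly. All 45 pairs among the 10 mitochondrial genes with a median of at least 10 CPM had a rho above 0.3, with a median of 0.73 and a lowest value of 0.54. Among 3160 pairs of nuclear members the median rho was 0.22, and 30.1% were above 0.3. Between nuclear and mitochondrial members the median rho over 800 pairs was -0.05. The same medians were 0.73, 0.16 and -0.06 after TMM scaling, and 0.74, 0.18 and 0.01 without the 7 libraries rich in glia markers. Pairs of nuclear members within a complex had a median rho of 0.24 and pairs from different complexes of 0.20. Pairs of other protein-coding genes were not computed, so the shares of pairs above 0.3 cannot be called particular to the members.

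Against the summed level of the other nuclear members, 28 of 80 nuclear members had a rho above 0.3, where 1.76% of all 5106 nuclear protein-coding genes with a median of at least 10 CPM did so against the nuclear sum. The counts were 41 of 80 and 5.37% after TMM scaling, and 21 of 80 and 1.33% without the 7 libraries. Uqcrh and Uqcr10 of complex III led with 0.74 and 0.61, followed by Cox6b1 with 0.59, Atp5o with 0.53 and Atp5g1 with 0.52. The median member had a rho of 0.24 and the median gene one of -0.10. Against the mitochondrial sum, 0 of 80 nuclear members had a rho above 0.3 and 5 had one below -0.3, where the shares of all genes were 0.353% and 2.27%. These 5 were Sdhc, Ndufb6, Cox7a2l, Atp5f1 and Cox6c, with values from -0.35 to -0.30. After TMM scaling 2 members were above and 10 below those limits.

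**Figure D5:**
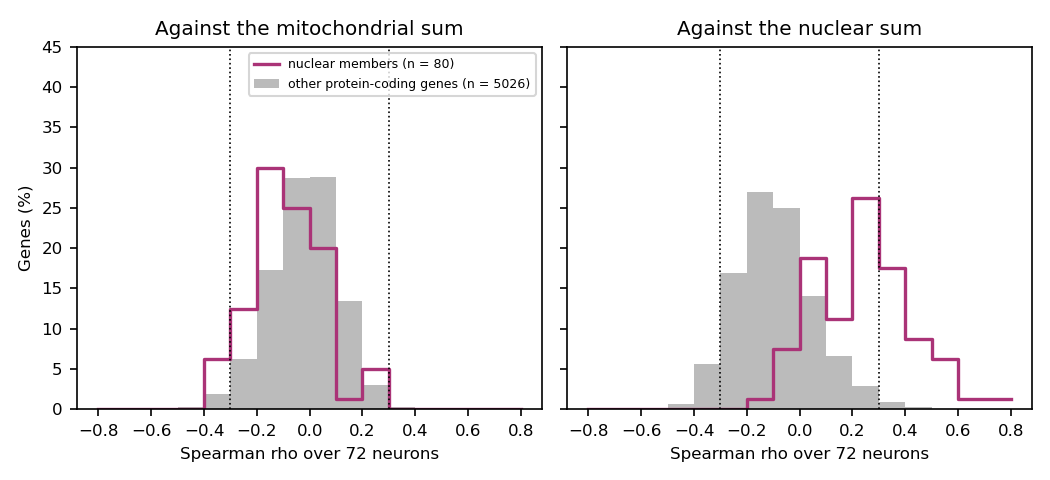
Histograms of Spearman's rho over 72 neurons between single nuclear genes and the mitochondrial sum (left) or the nuclear sum (right, each member against the sum of the other members), for the 80 nuclear members (line) and 5026 other protein-coding genes (bars), in percent of genes per bin of 0.1; dotted lines mark rho of -0.3 and 0.3. On the right 28 members lie above 0.3, and on the left 0 do; under TMM scaling these counts were 41 and 2.

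The non-members most like the nuclear sum, by rho over 72 neurons, were led by Sncg (gamma-synuclein, abundant in sensory neurons) with 0.63 and Sod1 (the cytosolic superoxide dismutase) with 0.51. Next came the mitochondrial fission protein Fis1 with 0.49, S100a10 with 0.49, the ATP synthase inhibitor Atpif1 with 0.46 and the tubulin gene Tuba1b with 0.46. Tppp3, Rps18, Dynlrb1 and Usmg5 closed the first 10, with values from 0.45 to 0.43. Usmg5 encodes a small protein of ATP synthase whose symbol falls outside the rule.

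Lists of genes around the pathway were read against the same limit, which 23.9% of all protein-coding genes passed; the differences between lists were not tested. Of 8 transcriptional regulators of mitochondrial genes, 1 was at 10 CPM in at least 50% of neurons, namely Yy1 with a median of 43.4 CPM. The coactivator Ppargc1a reached 10 CPM in 15 neurons, Nrf1 in 19 and Gabpa in 33. Of 14 genes for transcription and RNA handling inside mitochondria, 4 were detected in at least 50% of neurons, namely Tfam, which packages mitochondrial DNA, with a median of 21.2 CPM, and the RNA-binding or RNA-processing genes Lrpprc, Slirp and Pnpt1 with 99.7, 118 and 15.6 CPM. The mitochondrial RNA polymerase Polrmt reached 10 CPM in 4 neurons. Their share lies near that of all protein-coding genes. None of the 14 had a rho beyond 0.3 in either direction with the mitochondrial sum, and the largest was 0.28 for Tfam. Of all nuclear protein-coding genes with a median of at least 10 CPM, 0.353% were above 0.3 and 2.27% below -0.3. A count of 0 lies near those shares and is no result about these genes. Among the 14 only Tfam, Lrpprc, Slirp and Pnpt1 had such a median.

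Of 23 genes for assembly factors of complexes II to V and the ATP synthase inhibitor, 13 were detected in at least 50% of neurons, and Atpif1 had the highest median, 576 CPM. Of 11 carriers and channels of the mitochondrial membranes 7 were, led by the adenine nucleotide translocator Slc25a4 with 3229 CPM, present in all 72 neurons. The uncoupling protein gene Ucp1 reached 9.22 CPM at most, and Ucp3 had 0 CPM in every neuron. Of 13 citric acid cycle genes 12 stood at 10 CPM in at least 50% of neurons, and of 16 glycolysis genes 12. The exception in the citric acid cycle was Suclg2, at 10 CPM in 6 neurons, whereas Sucla2, which encodes the other beta subunit of succinyl-CoA ligase, was at that level in 62. Gapdh had a median of 0.828 CPM, and 55.4% of its windows were found in other genes. The nuclear sum had a rho of 0.37 with the summed carriers, 0.38 with the citric acid cycle sum and 0.17 with the glycolysis sum. After TMM scaling these were 0.82, 0.55 and 0.37. Without the 7 libraries rich in glia markers the carriers had 0.39 and the citric acid cycle 0.26. Single genes of the 3 lists, scaled to the total without mitochondrial counts, had lower median rho, at 0.05, 0.05 and 0.13 in the same order.

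Promoters of nuclear members were read for letters known from this pathway, since NRF1 and GABP are established activators of respiratory genes. RefSeq windows of 300 bases (GRCm38.p6), from 250 before to 50 after the start, matched 77 of 94 nuclear members in 82 windows. Both strands were searched. The NRF1 letters CGCATGCG stood in 14.6% of member windows and in 1.87% of all 32851 windows. The ETS core bound by GABP, CCGGAAG or its complement CTTCCGG, stood in 18 of 82 member windows and in 8.86% of all, the SP1 letters GGGGCGGGG in 15.9% and 11.4%, and TATAAA in 9.76% and 13.6%. In 0 of the 82 member windows did matches of 2 of these motifs overlap. Members with the NRF1 letters were Atp5g2, Atp5j, Atp5k, Atp5l, Cox6a1, Cycs, Ndufa8, Ndufa11, Ndufaf4, Ndufaf5, Uqcr11 and Uqcrc1, and their median levels ran from 1.19 CPM for Atp5g2 to 535 CPM for Cox6a1. A match of letters is a description and not evidence of binding. All windows include promoters of genes not detected here, and no share was computed for detected genes alone. The contrast is therefore not shown to be particular to this pathway. The windows of the 3 such members with the highest median levels are shown, with NRF1 and ETS letters in capitals, at chr5:115348909-115349208 (minus strand), chr16:84834927-84835226 (minus strand) and chr2:36049289-36049588 (minus strand). Cox6a1, Atp5j and Ndufa8 were detected in 72, 71 and 65 neurons. Another window of Atp5j, at chr16:84835576-84835875 (minus strand) and at the annotated start of the gene, had neither NRF1 nor ETS letters.
Cox6a1: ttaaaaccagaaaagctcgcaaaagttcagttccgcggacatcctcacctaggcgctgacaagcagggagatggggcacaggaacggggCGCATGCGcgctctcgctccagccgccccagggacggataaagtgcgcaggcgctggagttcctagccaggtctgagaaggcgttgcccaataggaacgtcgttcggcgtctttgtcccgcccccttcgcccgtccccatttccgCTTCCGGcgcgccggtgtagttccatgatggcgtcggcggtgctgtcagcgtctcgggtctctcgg
Atp5j: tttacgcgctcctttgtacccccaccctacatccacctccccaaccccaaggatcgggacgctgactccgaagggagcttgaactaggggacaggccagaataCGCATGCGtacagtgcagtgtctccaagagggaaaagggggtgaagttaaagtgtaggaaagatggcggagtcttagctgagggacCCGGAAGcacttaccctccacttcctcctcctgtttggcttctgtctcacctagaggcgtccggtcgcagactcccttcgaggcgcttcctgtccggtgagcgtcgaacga
Ndufa8: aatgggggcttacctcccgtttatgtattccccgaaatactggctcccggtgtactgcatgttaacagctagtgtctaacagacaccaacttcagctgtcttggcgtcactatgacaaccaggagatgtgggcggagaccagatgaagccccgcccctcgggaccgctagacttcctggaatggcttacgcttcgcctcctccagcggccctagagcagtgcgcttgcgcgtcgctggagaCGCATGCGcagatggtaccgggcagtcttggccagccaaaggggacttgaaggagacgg

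Neurons that express Prdm12, a marker of the jugular ganglion, numbered 7 at 10 CPM or more, and in them the nuclear sum had a median of 23665 CPM and the mitochondrial sum one of 22877 CPM, against 26573 and 11614 CPM in the other 65 neurons. The ranges overlapped, with mitochondrial sums of 7295 to 27351 CPM in Prdm12 neurons and of 475 to 74435 CPM in the others, and the difference was not tested. The Prdm12 neurons also had more detected genes, with a median of 8091 and a lowest value of 4722, against 4870 and 841 in the others, and the part of this in the sums was not tested. Across identifier blocks the median nuclear sum was 23588, 21102 and 28677 CPM and the median mitochondrial sum 17794, 14490 and 10789 CPM.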

How the data were processed

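Per the labels, single traced neurons were collected, their mRNA was amplified and 76-base reads were sequenced. The authors deposited raw counts, whole numbers per Ensembl gene, made with featureCounts per the submitters' processing notes; the sources used here do not state its version, the aligner, the genome build, the annotation or the strand setting. Molecular identifiers are not mentioned, and counts can therefore include PCR duplicates. Symbols, exon lengths and coordinates were taken from GENCODE M21 (GRCm38), which matched 50376 of 50686 identifiers, and the 310 others held at most 0.253% of a neuron's counts. CPM was computed from each neuron's total. Levels per kb use the merged length of all annotated exons of a gene, including those of non-coding transcripts. This length can far exceed that of the coding transcript, so ranks per kb depend on it. The 12 neurons under 5000000 counts were left out.

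Medians, ranges and Spearman's rho describe neurons; no test was run, since the labels give 1 group and name no animal. Shares of neurons have exact (Clopper-Pearson) 95% intervals, and a share of 0 is limited by 3 counts; both cover counting error only. At 10 CPM the shallowest neuron kept had 67.3 counts. For rho of single genes, nuclear counts were scaled to the total without mitochondrial genes. Members and lists were chosen with earlier results of these data known. All members could be named; in full were given the mitochondrial genes, the 2 highest and 2 lowest per complex by CPM per kb, the paralogue families, members never at 10 CPM and the 10 widest, and outside them the 10 genes most like the nuclear sum and genes of the pathway lists. Alternatives covered the depth limit, thinning to 6732279 counts (seed 1), scaling, the choice of members and leaving out each identifier block; 4 were chosen after seeing the data. Promoters came from RefSeq (GRCm38.p6). The NRF1 letters searched are the core of a longer form that was run first, and the shorter letters were taken after its matches had been seen; they also changed which promoters are shown, and the longer form is not reported. The correlation step was tested on simulated data. Tools were Python 3.11.15, numpy 2.4.6, pandas 2.3.3, scipy 1.17.1, Biopython 1.88, matplotlib 3.10.9, R 4.3.3 and edgeR 4.0.16, the last for TMM factors only.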

Additional observations from a re-analysis of the deposited data

Results flagged for a closer look

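The 12 neurons left out for depth, with 576966 to 3892206 counts, also carried transcripts of the system. Their nuclear sum had a median of 16942 CPM, with a range of 4616 to 197171 CPM, and their mitochondrial sum had a median of 27017 CPM, with a range of 6316 to 504489 CPM. Both are signals in libraries that the comparisons above do not use. In these 12 the ratio of nuclear to mitochondrial sum had a median of 0.841, and the pan-neuronal sum a median of 4074 CPM.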

How the results depend on the processing

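Over 21 alternatives, the median mitochondrial sum ran from 3813 to 16985 CPM, against 11993 CPM as reported, and the median log2 ratio from 0.56 to 1.96, against 0.98. The lowest sum and the highest ratio came without members that overlap a gene or have a named pseudogene, where only 3 mitochondrial genes remained. The highest sum and lowest ratio came without identifier block 3. The rho between nuclear and mitochondrial sum turned positive under TMM scaling, at 0.30, was -0.35 among the 60 neurons with at least 10000000 counts and was -0.037 without identifier block 3. In the setting without members that overlap a gene or have a named pseudogene, 58 nuclear genes remained. Members whose copies carry other names, such as Cox7c and Ndufb4, were kept. The median nuclear sum was then 14711 CPM, with 49 genes at 10 CPM in at least 50% of neurons and 2 with a rho below -0.3. Nuclear members with a rho above 0.3 with the mitochondrial sum, 0 as reported, numbered 1 at 10000000 counts, and 2 under TMM, without block 3 and without the 7 libraries rich in glia markers. Those below -0.3, 5 as reported, numbered 14 in all 84 neurons, 10 under TMM, 9 without block 3 and 0 at a limit of 0.5. They numbered 3 in each of 4 settings added after seeing the data: without members that share most windows with another gene, without AM287 and AM298, without the 7 libraries, and with mt-Nd1, mt-Nd4 and mt-Cytb alone as mitochondrial sum. The cause was not tested. No paired analysis was possible because the labels give 1 group and its replicate numbers only follow accession order. Counts are not molecules here, so the precision of low levels is unknown.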
